A study of Mus musculus with 7 samples.

Results

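The genes described here encode the subunits of oxidative phosphorylation that are made from nuclear DNA. They were chosen by symbol: Nduf followed by a, b, c, s or v and a number, the 4 Sdh genes, the Uqcr genes, Cyc1, the Cox4 to Cox8 genes and the Atp5 genes, without symbols that end in -ps. This rule took 86 of the 55364 genes listed, which carry 85 symbols because Atp5o is listed as 2 genes. By the complex they belong to, 35 are subunits of complex I, 4 of complex II, 9 of complex III, 19 of complex IV and 18 of complex V. Ndufa4 was counted with complex IV, where its product works in spite of its name. The remaining gene, Cox6c2, is annotated as a processed pseudogene of 231 bases and was kept apart.

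RNA-seq of mini-oocytes was analysed in 7 libraries. Mini-oocytes are oocyte-like cells made in flat culture from mESCs, mouse embryonic stem cells of a hybrid 129/C57BL6 background, by forced expression of transcription factors. In 4F cells the 4 factors were Nobox, Figla, Tbpl2 and Lhx8, and in 8F cells Stat3, Dynll1, Sub1 and Sohlh1 were added, which makes 8. The study derived both lines from the female line BVSC H18, and each factor carries a domain that keeps it stable only while the ligand Shield-1 is in the medium, which was left out from day 12. The study describes an Npm2-mCherry reporter cassette in the 8F cells. All groups received stem cell factor and the ROCK inhibitor Y-27632. There were 2 libraries of 4F cells at day 7, each from 1000 pooled cells, 3 of 4F cells at day 21 and 2 of 8F cells at day 21, these from 10 pooled cells each. Day, cell number and the supply of Shield-1 therefore changed together between the 4F groups and cannot be told apart. The sources do not say whether the samples of a group came from separate cultures, so the p-values measure the spread between these samples, which may be technical.

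Oxidative phosphorylation passes electrons from NADH through complex I, or from succinate through complex II, to coenzyme Q, then through complex III and cytochrome c to complex IV, which reduces oxygen. Complexes I, III and IV pump protons, and complex V, the ATP synthase, lets them return and makes ATP. Oocytes hold very many mitochondria and rely on this pathway for their energy, while their complex I is known to be kept low during dormancy. Some subunits also come from mitochondrial DNA. Those 13 genes are not analysed here.

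Values are TPM, in which the reads of a gene are divided by its exon length and every library is scaled to the same total, so levels of different genes are compared per length. A gene was tested where it reached 1 TPM in at least 2 libraries. Differences are on the log2(TPM + 1) scale, which understates the change of low genes, with their standard error (SE). Each p-value comes from limma and was adjusted for all 21780 tested genes after Benjamini and Hochberg. The threshold was an adjusted p of 0.05. Read numbers on genes, estimated from the steps in low TPM values, ran from 9514523 to 18043514 per library, so that 3 reads correspond to between 0.514 and 0.764 TPM for a gene of 1000 exonic bases. All 12 oocyte markers examined, among them Gdf9, Zp3 and Ddx4, were above 10 TPM in each 4F library, and 11 of 12 in both 8F libraries, where Dazl fell below in 1. Their summed level was 13058 and 15475 TPM at day 7, 36638 to 39078 TPM in 4F at day 21 and 30370 and 31392 TPM in 8F. Of 5 markers of simple epithelium or trophoblast, 4 (Krt8, Krt18, Krt19 and Hand1) were above 10 TPM in both day 7 libraries, where Cdx2 was at 0. The sum of these 5 was 1145 and 1712 TPM at day 7, 37.6 to 137 TPM in 4F at day 21 and 26.1 and 33.6 TPM in 8F. The 10 most abundant genes took 28.5% and 31.8% of all TPM at day 7 and 10.2% to 14% at day 21.

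The subunits were abundant in every library. Together they took 0.908% to 1.10% of all TPM, and 77 to 80 of the 86 genes were at 10 TPM or more in any library. Atp5mpl, a small membrane subunit of complex V, had the highest mean, 643 TPM over the 7 libraries, before Atp5h, a subunit of the peripheral stalk, at 356 TPM and Atp5a1, the alpha subunit of the catalytic F1 head, at 345 TPM. In complex I the highest means were those of Ndufb11 (288 TPM) and Ndufa1 (222 TPM), both accessory subunits of the membrane arm, and in complex IV those of Cox5b (292 TPM) and Cox6c (279 TPM). Cox7b2 and Cox8b, known from testis and muscle, were listed at 0 in all 7 libraries, which leaves 84 genes tested. Atp5o, the subunit that joins the stalk to the catalytic head, is listed as a gene of 180 to 304 TPM and again as one of 74.3 to 107 TPM. The exons of the first lie wholly within those of Donson on the same strand, so its reads cannot be assigned to Atp5o alone, and 47.9% of the exonic bases of the second are overlapped by Gm15976 on the opposite strand.

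Subunits of one complex did not share one level. Within complex I the means ran from 3.13 TPM for Ndufb2 to that of Ndufb11. Part of this range moved with the annotation: the exons of Ndufb2 add up to 5628 bases while its principal transcript is 455 bases long, and the summed exons were 11.8 times as long as the principal transcript for Atp5l, a small membrane subunit of complex V, and 8.24 times for Atp5g1, a subunit of the rotating ring. Since TPM divides by the summed exons, levels of such genes are low for their read number. Differences between groups of the same gene do not contain this factor, while levels set between genes, such as shares of paralogs, do.

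Between day 7 and day 21, the balance between the complexes differed in the 4F cells. The summed TPM of complex I was 2759 and 2694 at day 7 and 3589, 3912 and 3674 at day 21. For complex IV the sums were 2459 and 2543 at day 7 and 1762, 2213 and 2023 at day 21. Complex I was thus higher and complex IV lower in every day 21 library, with no overlap. The ratio of the sums, which does not depend on the scaling of a library, was 1.12 and 1.06 at day 7 and 2.04, 1.77 and 1.82 at day 21 in 4F, and lay between them in 8F, at 1.64 and 1.57. Sums are governed by the abundant subunits. The ratio of the median TPM of the 2 complexes was 0.895 and 0.78 at day 7 and 1.43, 1.37 and 1.11 in 4F at day 21. In 8F that ratio of medians was near day 7, at 0.928 and 0.901. Complex II was higher at day 21 too, with sums of 298 and 262 TPM at day 7 and 446 to 498 TPM at day 21. Complex III stayed between 946 and 1069 TPM in these 5 libraries and complex V between 2454 and 3047 TPM, with overlapping groups.

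**Figure D1:**
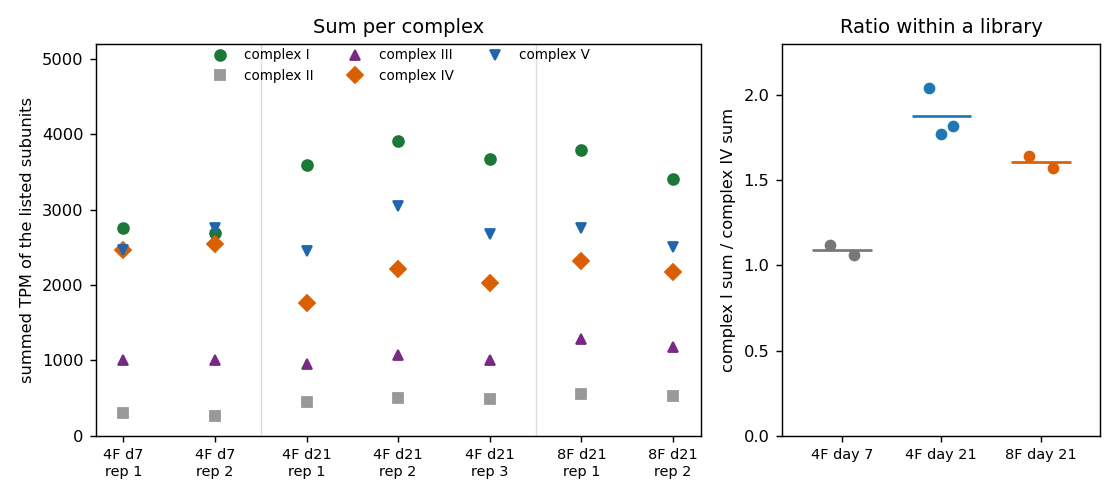
Summed TPM of the listed subunits of each complex in the 7 libraries (left; replicate numbers on the x axis, 1 symbol per complex) and the ratio of the complex I sum to the complex IV sum (right; points are libraries, bars are group means). The ratio is 1.12 and 1.06 at day 7, 1.77 to 2.04 in 4F at day 21, and 1.64 and 1.57 in 8F.

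Gene by gene, 39 of the 84 tested members (46.4%) passed the threshold in 4F at day 21 against day 7, where 40.6% of all genes tested did. Of these, 23 were higher and 16 lower, against 25.3% and 15.3% of all genes. Most members are abundant, and among genes averaging 10 TPM or more 56.6% passed, 43.5% higher and 13.2% lower. The ranges of the 2 groups did not overlap for 48 of the 84 members, against 56.7% of all genes tested and 71.4% of those at 10 TPM or more. The split into higher and lower depends on how libraries are scaled to each other: it was 14 higher and 24 lower after median-of-ratios rescaling, 8 and 36 after quantile normalization and 7 and 33 with limma's voom on the estimated reads. The median difference of all genes tested was 0.17 in the TPM and moved to -0.06, 0.04 and -0.32 under these scalings. Relative to that median, the medians of the complexes were 0.29 for complex I, 0.60 for complex II, -0.23 for complex III, -0.67 for complex IV and -0.43 for complex V, and only that of complex I changed sign in any scaling, to -0.10 after quantile normalization. The median of complex I exceeded that of complex IV by 0.96, and by 0.69 to 1.01 in all alternatives run. Of the 39 members that passed, 12 kept their sign and passed in every alternative run for them: Ndufa9, Ndufa11, Ndufa5, Cox5a, Atp5j2 and Cox6c2 were higher, and Cyc1, Uqcrb, Cox4i2, Cox7c, Cox8a and Atp5l lower. The calls least often kept were those of Atp5b (4 of 20 alternatives), Ndufs5 (6), Uqcrc2 and Atp5md (8 each), and Sdhb and Atp5pb (9 each). On mm10, GENCODE places Ndufa9 (ENSMUSG00000000399.10) at chr6:126821721-126849136, Cyc1 (ENSMUSG00000022551.8) at chr15:76343523-76346260, Cox4i2 (ENSMUSG00000009876.13) at chr2:152754173-152765037, Cox5a (ENSMUSG00000000088.7) at chr9:57521274-57532426, Cox7c (ENSMUSG00000017778.14) at chr13:86044816-86046904, Atp5l (ENSMUSG00000038717.8) at chr9:44912557-44920742 and Cox6c2 (ENSMUSG00000066491.4) at chr12:56373593-56373823.

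**Figure D2:**
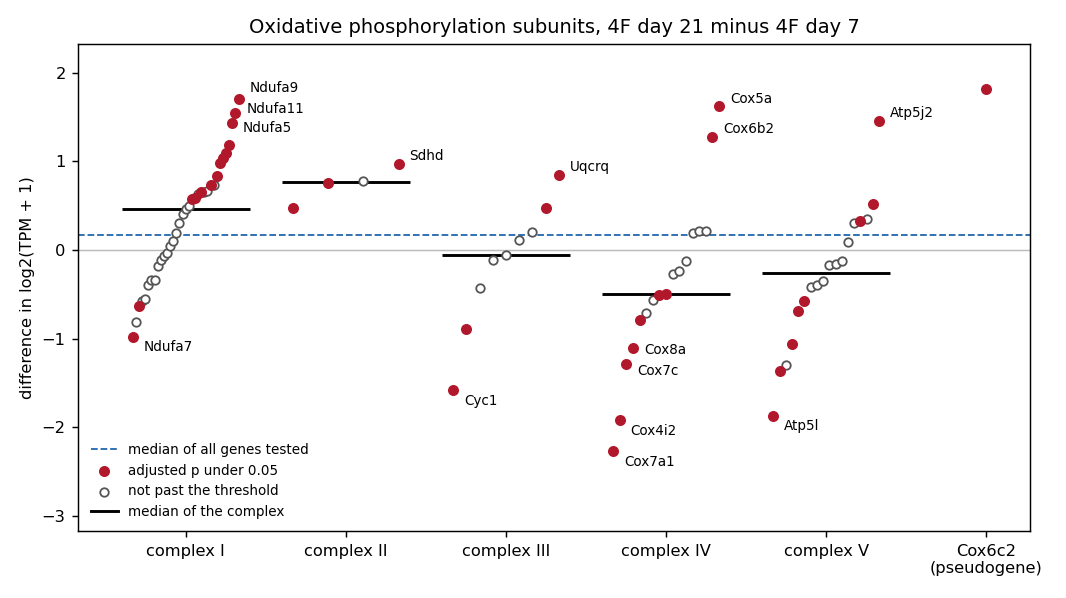
Difference in log2(TPM + 1) between 4F at day 21 and at day 7 for each tested member, by complex; filled points passed an adjusted p of 0.05, bars are medians of a complex, and the dashed line is the median of all genes tested (0.17). Medians of complexes I and II lie above that line and those of III, IV and V below it, except that complex I falls 0.10 below it after quantile normalization.

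In complex I, 12 of 35 subunits rose and 2 fell, where 25.3% of all genes tested rose and 15.3% fell. Among genes averaging 10 TPM or more these shares were 43.5% and 13.2%. The counts by complex, here and below, are of the TPM and were not made under the other scalings. The largest rise was that of Ndufa9, an accessory subunit beside the coenzyme Q pocket, with 27.2 and 39.3 TPM at day 7 and 86.0, 144 and 103 TPM at day 21. Every day 21 library lay above both day 7 libraries, a difference of 1.7 ± 0.252 (SE) with an adjusted p of 0.00245 (limma). Ndufa11, which helps to hold the membrane arm together, had 33.3 and 37.0 TPM against 104, 130 and 85.5 TPM, likewise without overlap (1.55 ± 0.19, limma adjusted p = 0.00114). Ndufa5, a subunit of the arm that reaches into the matrix, had 120 and 84.4 TPM against 247, 313 and 261 TPM (1.43 ± 0.193, limma adjusted p = 0.00167). The other 9 that rose differed by 0.58 to 1.18. Ndufa10, the largest of these, had 64.1 and 35.0 TPM against 120, 87.7 and 123 TPM, and Ndufs4, which stabilises the NADH-oxidising module, had 78.6 and 84.2 TPM against 150, 136 and 153 TPM. Both were higher in every day 21 library in the TPM, and both lost their call after quantile normalization, Ndufs4 also with voom. Ndufa8, Ndufb10, Ndufs5 and Ndufc2 are accessory subunits as well. Among the core subunits described here, most of which bind the flavin or iron-sulfur clusters, Ndufs7, Ndufv1 and Ndufv2 rose and none fell. Ndufs7, the core subunit next to coenzyme Q, had 68.1 and 74.6 TPM at day 7 and 130, 141 and 153 TPM at day 21, about 1.97-fold higher (limma adjusted p = 0.000853), and did not pass with voom on the estimated reads. Ndufs1, the largest of the core subunits, had 30.5 and 25.1 TPM against 17.1, 20.8 and 25.4 TPM, so that the groups met near 25 TPM, and did not pass (-0.39 ± 0.216, limma adjusted p = 0.194). Ndufs3 at 17.4 to 42.8 TPM and Ndufs8 at 40.9 to 86.8 TPM also overlapped between the days. Ndufv1, which holds the flavin and takes the electrons of NADH, had 84.8 and 79.1 TPM against 140, 125 and 145 TPM, and its partner Ndufv2 had 76.8 and 96.7 TPM against 132, 118 and 162 TPM. No day 21 library of either overlapped with day 7 in the TPM. The call of Ndufv1 was lost after quantile normalization and with voom. That of Ndufv2 was kept in 10 of 20 alternatives and lost under every other scaling, with a lowest difference of 0.05. The accessory subunit Ndufa7 fell from 32.5 and 49.7 TPM to 22.2, 21.9 and 16.0 TPM (-0.98 ± 0.248, limma adjusted p = 0.0197), and Ndufb9 from 193 and 166 TPM to 123, 126 and 98.9 TPM (-0.63 ± 0.143, limma adjusted p = 0.0128). Ndufb11, with the highest level of the complex, had 182 and 214 TPM against 234, 274 and 314 TPM and missed the threshold (limma adjusted p = 0.0531), whereas Ndufa1, at 167 to 250 TPM, overlapped. Grouped by symbol, which does not mark a place in the complex, 5 of 12 Ndufa, 1 of 10 Ndufb, 1 of 2 Ndufc, 3 of 8 Ndufs and 2 of 3 Ndufv genes rose, where 25.3% of all genes tested and 43.5% of those averaging 10 TPM or more did.

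Complex II oxidises succinate in the citric acid cycle and has no subunit from mitochondrial DNA. All 4 of its genes were higher in every 4F library at day 21 than in both at day 7, and 3 passed. Of all genes tested 25.3% passed as higher, and 43.5% of those averaging 10 TPM or more. Sdhd, a membrane anchor, had 101 and 62.2 TPM at day 7 and 148, 158 and 163 TPM at day 21 (0.97 ± 0.2, limma adjusted p = 0.00918). Its call was lost after quantile normalization and with voom, and its lowest difference over the alternatives was 0.35. Sdha, the flavoprotein that holds the active site, had 121 and 96.5 TPM against 172, 208 and 172 TPM (0.76 ± 0.14, limma adjusted p = 0.00599). Sdhb, the iron-sulfur subunit, had 42.8 and 50.1 TPM against 67.1, 60.9 and 65.5 TPM, a rise of 0.47 ± 0.12 (limma adjusted p = 0.0212), which became -0.08 both after quantile normalization and with voom. Sdhc, the other anchor, was at 32.6 and 53.3 TPM against 58.4, 71.7 and 91.2 TPM and missed the threshold (0.78 ± 0.263, limma adjusted p = 0.0531).

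In complex III, Cyc1 and Uqcrb fell, Uqcrq and Uqcrc2 rose, and the other 5 did not pass. Cyc1, the cytochrome c1 that hands electrons to cytochrome c, had 55.7 and 51.2 TPM at day 7 and 15.3, 12.7 and 26 TPM at day 21. Each day 21 library lay below both day 7 libraries, on average 2.99-fold (-1.58 ± 0.29, limma adjusted p = 0.00569). Uqcrq, a small subunit, had 129 and 135 TPM against 242, 233 and 243 TPM, a difference of 0.85 ± 0.106 without overlap (limma adjusted p = 0.00121). Its call was lost after quantile normalization and with voom, and its lowest difference over the alternatives was 0.21. Uqcrb, another small subunit, had 244 and 261 TPM against 126, 173 and 116 TPM, so that the day 21 libraries were all lower (-0.89 ± 0.179, limma adjusted p = 0.00835). About 25.4% of the 50-base stretches of Uqcrb occur in other loci, of which the processed pseudogenes Gm2962 (3.7, limma adjusted p = 0.0016) and Gm5457 (3.09, limma adjusted p = 0.0446) were higher at day 21. Their part in the fall of Uqcrb was not tested. Uqcrfs1, the iron-sulfur protein of the complex, was at 58.4 to 73.3 TPM in these libraries and the core protein Uqcrc1 at 42.0 to 59.5 TPM, both with overlapping groups. Uqcr11, the second most abundant of the complex, overlapped as well, at 146 to 203 TPM. The second core protein, Uqcrc2, had 74.5 and 58.5 TPM against 93.9, 86.9 and 95.4 TPM (0.47 ± 0.131, limma adjusted p = 0.0276), with a sign that turned after quantile normalization (-0.14) and with voom (-0.04).

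Complex IV was the complex with the most subunits that fell, 7 of 17 tested, while 2 rose. Of all genes tested 15.3% fell and 25.3% rose, and of those averaging 10 TPM or more 13.2% and 43.5%. Its mitochondrially encoded core is surrounded by nuclear subunits that regulate it. Cox5a, one of those in contact with the matrix, rose from 6.85 and 10.8 TPM at day 7 to 26.4, 27.3 and 31.9 TPM at day 21 (1.62 ± 0.217, limma adjusted p = 0.00164). Cox5b, its partner by name but not by sequence, was at 321 and 279 TPM against 324, 346 and 352 TPM, which did not pass (0.19 ± 0.111, limma adjusted p = 0.231). In the opposite direction, Cox7c, a small subunit that crosses the membrane, had 75.9 and 84.6 TPM against 26.4, 42.3 and 29.7 TPM (-1.29 ± 0.205, limma adjusted p = 0.00319). Cox8a, another small membrane subunit, had 214 and 278 TPM against 97.9, 120 and 121 TPM (-1.11 ± 0.153, limma adjusted p = 0.00183). For both genes all day 21 libraries lay below all day 7 libraries. Cox6c had 352 and 349 TPM against 216, 279 and 248 TPM and fell too (-0.51 ± 0.145, limma adjusted p = 0.0316). Cox4i1, Cox4i2, Cox7a1 and Cox7a2, which also fell, and Cox6b2, which rose, are given with their paralogs. Cox6a1, Cox6b1, Cox7b, Cox7a2l and Ndufa4 did not pass. About 22.1% of the 50-base stretches of Cox7c occur in other loci, and since reads that fit several places were dropped, its level can be set too low in every group. For Cox5a, 12.8% of the exonic bases are overlapped by Gm26631 on the opposite strand.

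In complex V, 3 of 18 rose and 5 fell, where 25.3% of all genes tested rose and 15.3% fell (43.5% and 13.2% at a mean of 10 TPM or more). The catalytic subunits rose slightly in the TPM: Atp5a1 had 265 and 293 TPM at day 7 and 401, 403 and 393 TPM at day 21 (0.52 ± 0.0901, limma adjusted p = 0.00466), and Atp5b, the beta subunit, had 110 and 119 TPM against 144, 151 and 138 TPM (0.33 ± 0.103, limma adjusted p = 0.0426). These 2 rises were not independent of the scaling, since Atp5b was at -0.29 after quantile normalization and Atp5a1 at -0.03 with voom. Atp5j2, a membrane subunit, rose from 20.4 and 26.6 TPM to 58.4, 71.2 and 69.1 TPM (1.46 ± 0.161, limma adjusted p = 0.000747). Another membrane subunit, Atp5l, fell from 21.5 and 19.5 TPM to 4.12, 3.52 and 7.77 TPM (-1.87 ± 0.35, limma adjusted p = 0.00619). The membrane part of the ATP synthase thus held the largest rise and the largest fall of the complex. In the F1 head, Atp5c1, the central shaft, and Atp5e did not pass, at 77.6 to 138 TPM and 81.1 to 109 TPM in these libraries, and Atp5d fell from 51.8 and 35.6 TPM to 21.9, 26.1 and 31.7 TPM (-0.69 ± 0.222, limma adjusted p = 0.0471). In the peripheral stalk, Atp5j fell from 202 and 172 TPM to 93.2, 118 and 63.8 TPM (-1.06 ± 0.256, limma adjusted p = 0.0166) and Atp5pb from 91.2 and 77.3 TPM to 50.7, 68.3 and 50.1 TPM (-0.58 ± 0.182, limma adjusted p = 0.0422). For these 3, no day 21 library reached the level of day 7. The abundant Atp5mpl (587 and 673 TPM against 599, 968 and 794 TPM) and Atp5h (245 and 293 TPM against 285, 408 and 340 TPM) overlapped. A membrane subunit that also helps ATP synthases to pair, Atp5md, from 30.6 and 38.8 TPM to 12.4, 23.6 and 7.05 TPM, was just under the threshold (limma adjusted p = 0.0493). Atp5j lies head to head with Gabpa, which encodes the DNA-binding subunit of nuclear respiratory factor 2, and 12.7% of its exonic bases overlap that gene on the opposite strand. Gabpa itself went from 96.3 and 98.5 TPM to 32.7, 28.8 and 30.7 TPM (-1.63, limma adjusted p = 0.000214).

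**Figure D3:**
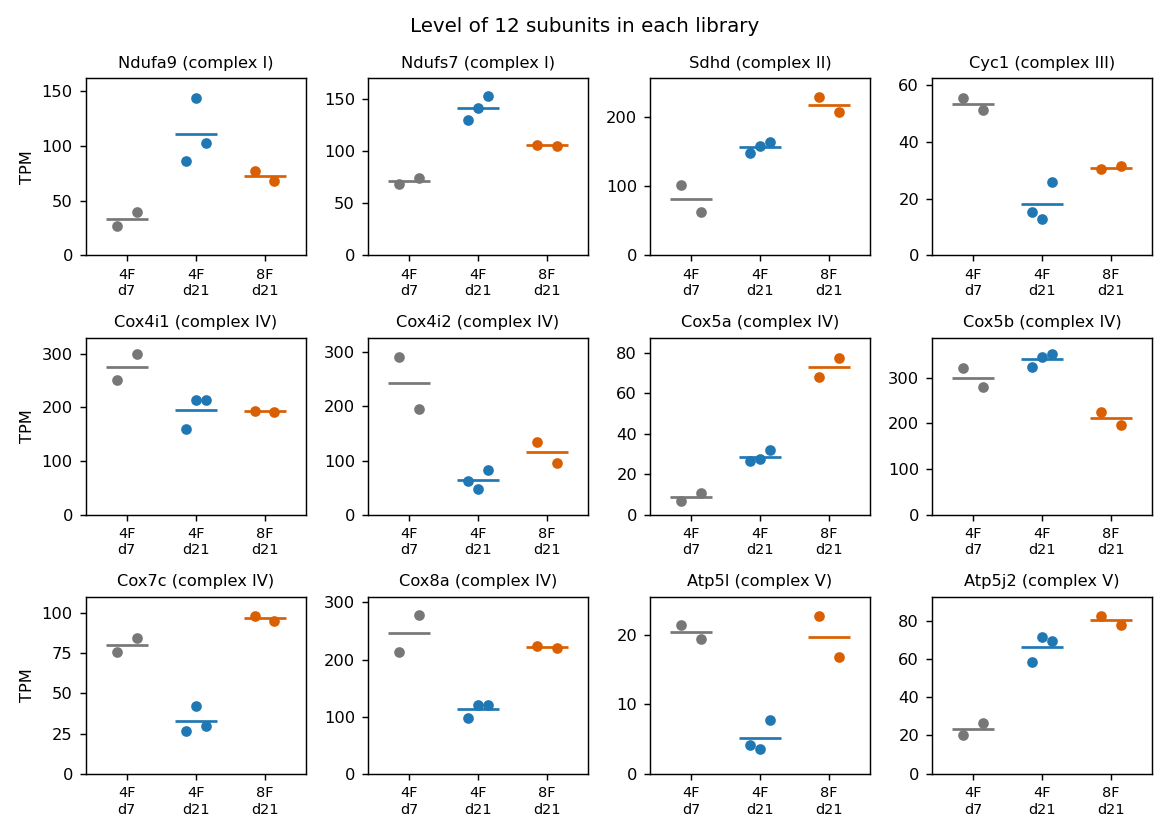
TPM of 12 subunits in each library (points) with the group mean (bars), each panel with its own y axis from 0. Cox5a steps up from 6.85 and 10.8 TPM at day 7 to 68.0 and 77.5 TPM in 8F, while Cox7c, Cox8a and Atp5l are lowest in the 3 libraries of 4F at day 21.

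Other gene groups were counted over the same days for comparison. Of 81 tested cytosolic ribosomal protein genes, 75 fell and 1 rose (median -1.52). Of 78 mitochondrial ribosomal protein genes, 37 rose and 2 fell (median 0.74), and of 37 proteasome subunits 24 rose and 2 fell (median 0.8). The signs of these 3 medians were the same under every scaling, although with voom the mitochondrial ribosomal proteins had 18 higher and 8 lower and the proteasome 11 and 6. The respiratory subunits, with 23 higher and 16 lower in TPM, had a median of 0.07, and the larger of both directions changed with the scaling as given above. No test of the difference between these groups and the subunits was made. The fall of the summed epithelial markers and the wider spread of RNA over genes moved with the same contrast, and their part in it was not tested. In bulk samples, fewer cells of a type and less RNA per cell cannot be told apart.

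Promoter sequence was compared with these changes, since several nuclear regulators are known to act on respiratory genes through short motifs near the start. The 250 bases before and 50 after the start, from RefSeq on GRCm38.p6, were found for 68 of the 85 symbols. The motif of NRF1, GCGC followed by any 2 bases and GCGC, occurred in 18 of them (26.5%) against 7.0% of the 27025 genes with a promoter in the table. The ETS motif CCGGAAG, which GABP binds, occurred in 17 (25%) against 9.93%, and AAGATGGCG, bound by YY1, in 10.3% against 1.64%. Both strands were searched, and a gene with several starts counted once if any of them held the motif. By complex, the NRF1 motif was in 8 of 31 genes of complex I, 1 of 14 of complex IV and 6 of 15 of complex V. It was in 7 of the 19 members that rose between day 7 and day 21 in 4F and in 0 of the 10 that fell. The ETS motif was in 2 of those 19 and 4 of those 10. Any of the 3 motifs was in 12 of those 19 and 4 of those 10. These letters were counted as a description, without a test and without matching on base composition. The split into members that rose and fell is that of the TPM and changes with the scaling. Motif shares among all genes that rose or fell were not counted, so no link between motif and direction can be read from these numbers.

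The following stretches show where the motifs lie in 5 members that rose. They are the last 100 bases upstream of the start, which could be taken for 23 of the 29 changed members with a promoter, and were chosen because a motif falls within those bases. Of the other changed members, Atp5j, Atp5l, Atp5md and Cox8a, which fell, hold the ETS motif elsewhere in the window, and Atp5j also that of YY1. They do not hold the NRF1 motif, which all 5 stretches show. Since the 5 were picked for a motif, their direction is not a result about it. Capitals mark the motif matches. The coordinates are of GRCm38.p6, and the letters read along the strand of the gene. For Ndufs5 and Sdha the stretch was moved outward by 16 and 40 bases, to where GENCODE begins the gene.
Ndufa11 (chr17:56717662-56717761, plus strand): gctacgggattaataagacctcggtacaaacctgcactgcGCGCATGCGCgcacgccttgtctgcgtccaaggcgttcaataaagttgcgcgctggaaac
Ndufs5 (chr4:123718203-123718302, minus strand): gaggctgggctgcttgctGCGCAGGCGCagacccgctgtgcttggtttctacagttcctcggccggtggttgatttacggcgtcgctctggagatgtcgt
Ndufv2 (chr17:66101560-66101659, minus strand): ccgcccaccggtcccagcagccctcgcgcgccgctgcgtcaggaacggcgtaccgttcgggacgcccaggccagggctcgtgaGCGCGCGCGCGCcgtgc
Sdha (chr13:74350281-74350380, minus strand): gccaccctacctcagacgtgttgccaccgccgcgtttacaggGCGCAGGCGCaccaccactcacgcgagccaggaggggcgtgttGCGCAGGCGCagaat
Sdhd (chr9:50603850-50603949, minus strand): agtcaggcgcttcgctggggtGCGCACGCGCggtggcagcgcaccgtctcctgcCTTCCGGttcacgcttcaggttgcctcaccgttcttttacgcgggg
Sdha carried the NRF1 motif at 2 places, and in Ndufv2 2 matches overlapped in a run of alternating G and C. Sdhd held an ETS match, written on the other strand as CTTCCGG, downstream of its NRF1 match.

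Comparing 8F with 4F at day 21 keeps day and cell number the same. The cell line, the reporter and the added factors cannot be told apart in it. Of the 84 members, 7 (8.33%) passed the threshold, 4 higher and 3 lower, a share near the 8.37% of all genes tested (3.95% higher and 4.41% lower) and 12.2% of those averaging 10 TPM or more (4.26% and 7.95%). Of these, 5 belong to complex IV, 1 to complex V, and 1 is the pseudogene Cox6c2. In complexes I to III limma called 0 of 48, with 13 at an unadjusted p under 0.05, while voom on the estimated reads called 4 and array weights 9. The count over all members ran from 1 to 22 over the alternatives, with 4 without the variance trend, 13 with voom and 22 with array weights. A missing call therefore does not show that a member was equal in both groups. Values of the 4F libraries were written with at most 9 decimals and those of the 8F libraries with up to 17, so a difference in how the tables were made and the factor set cannot be told apart. Genes above 0 numbered 26563 and 26750 in 8F and 21293 to 22316 in 4F at day 21.

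The members higher in 8F were Cox7c, Cox5a, Cox8a and Atp5l, and each had also differed between the days. Cox7c had 26.4, 42.3 and 29.7 TPM in 4F and 98.3 and 94.7 TPM in 8F (1.55 ± 0.205, limma adjusted p = 0.0106). Cox5a had 26.4, 27.3 and 31.9 TPM against 68.0 and 77.5 TPM, 2.50-fold higher (limma adjusted p = 0.0189). Cox8a had 97.9, 120 and 121 TPM against 223 and 221 TPM, 1.97-fold higher (limma adjusted p = 0.0167). In each of the 3, both 8F libraries lay far above the highest 4F library. Atp5l had 4.12, 3.52 and 7.77 TPM in 4F and 22.7 and 16.9 TPM in 8F (1.81 ± 0.35, limma adjusted p = 0.0295). The 8F levels of Cox7c, Cox8a and Atp5l were near those of 4F at day 7. Since the 4F libraries of day 21 enter both comparisons, a fall in one and a rise in the other are not separate observations.

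Cox5b and Cox7b of complex IV were lower in 8F. Cox5b had 324, 346 and 352 TPM in 4F and 225 and 197 TPM in 8F (-0.69 ± 0.111, limma adjusted p = 0.0181). Cox7b, a membrane subunit encoded on the X chromosome, had 244, 270 and 228 TPM against 170 and 159 TPM (-0.59 ± 0.107, limma adjusted p = 0.0247). The groups did not overlap in either gene, and both changes are smaller than 2-fold. For Cox5b, 11.9% of the 50-base stretches occur in another locus.

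The largest difference between 8F and 4F was that of Cox6c2, listed at 230, 227 and 289 TPM in 4F at day 21 and 26.7 and 22.6 TPM in 8F (-3.28 ± 0.266, limma adjusted p = 0.00297). It was at 94.3 and 50.6 TPM at day 7. As its 231 bases share 52.7% of their 50-base stretches with Cox6c, and the reads behind these values number 248.7, 227.7 and 279.7 in 4F and 36.0 and 29.5 in 8F by the estimate used here, reads of the parent gene and of the copy may not be separable. Cox6c itself was at 216, 279 and 248 TPM in 4F and 280 and 226 TPM in 8F, with overlapping groups (0.03 ± 0.145, limma adjusted p = 0.954). In a gene this short, 3 reads correspond to 2.23 to 3.31 TPM.

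Without either of the 8F libraries, 1 member passed, Cox6c2, which is also the only member that passed in all 19 alternatives it could be run in. Without 4F replicate 2 of day 21 the count was 3, and without either day 7 library, which only set the spread, it was 12. Of the other members, Atp5g2, one of 3 genes for the same protein of the rotating ring, differed most in the fitted value but did not pass. It had 2.04, 8.52 and 9.18 TPM in 4F and 31.8 and 29.7 TPM in 8F, so that no libraries overlapped (2.25 ± 0.561, limma adjusted p = 0.0606), and 36.7% of its 50-base stretches occur in other loci. Ranges did not overlap for 43 of 84 members, for 43.8% of all genes tested and for 54.5% of those at 10 TPM or more. Relative to the median of all genes, the complexes had medians of -0.13 (I), 0 (II), 0.31 (III), 0.36 (IV) and 0.2 (V), with the same signs in every scaling for I, III, IV and V, while that of complex II lay between -0.07 and 0.13 over all alternatives.

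**Figure D4:**
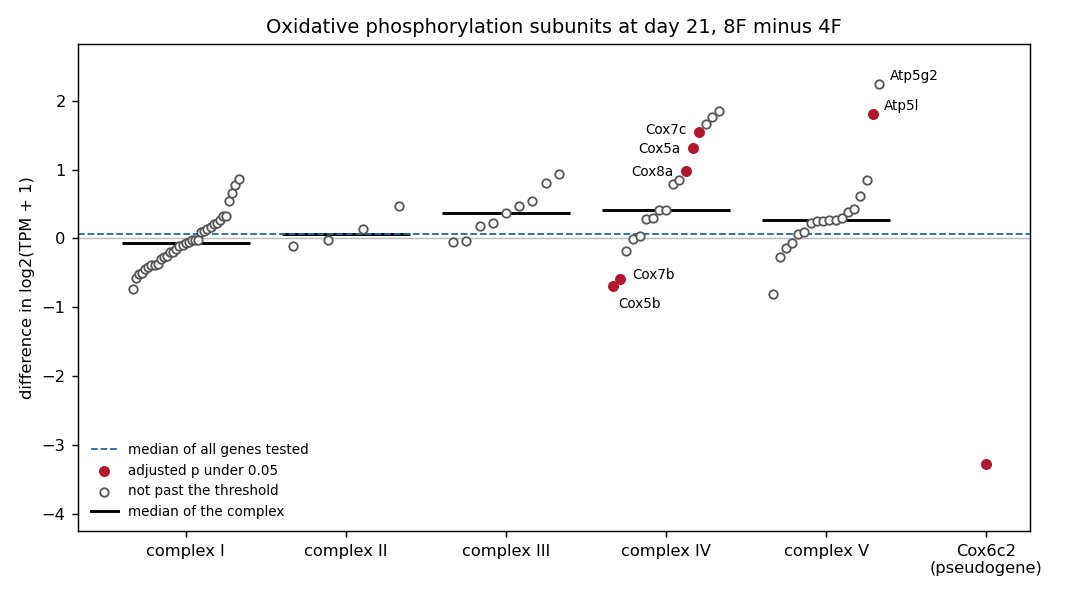
Difference in log2(TPM + 1) between 8F and 4F at day 21 for each tested member, by complex, with symbols as in the plot for the days; the median of all genes tested is 0.06. Filled points are found in complex IV (5), complex V (1) and the pseudogene Cox6c2 only.

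Against 4F at day 7, 8F at day 21 differed in 26 of 84 members (31.0%), where 37.2% of all genes tested passed, and 19 were higher and 7 lower, against 24.2% and 13% of all genes. At a mean of 10 TPM or more, 51.0% of genes passed, 38.3% higher and 12.7% lower. Ranges did not overlap for 58 members, for 72.3% of all genes tested and for 81.9% of those at 10 TPM or more. This comparison shares its libraries with the other 2. Rescaling again moved the split, to 8 higher and 12 lower by median of ratios and to 4 and 19 by quantile normalization. Cox5a had the largest difference of any member, 2.94 ± 0.237 (limma adjusted p = 0.000367), since it was higher in 4F at day 21 than at day 7 and higher again in 8F. For Cox7c, Cox8a and Atp5l the differences were 0.26, -0.13 and -0.06, and none passed. The median difference was 0.27 for complex I and 0.18 for complex IV, against 0.24 for all genes tested.

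Several subunits are encoded by a pair or trio of paralogs, of which one is broadly expressed and the other bound to a tissue or condition. Cox4i2, the paralog known from lung and from low oxygen, made up 18% to 53.5% of the TPM of its pair. It had 291 and 196 TPM at day 7, 62.3, 46.7 and 82.9 TPM in 4F at day 21, and 135 and 94.8 TPM in 8F. The fall between the days left every day 21 library of 4F below both of day 7 (-1.92 ± 0.293, limma adjusted p = 0.00272). Cox4i1, the common paralog, had 252 and 299 TPM, then 160, 213 and 213 TPM, and 194 and 192 TPM in 8F, a smaller fall between the days (-0.50 ± 0.156, limma adjusted p = 0.0414). In TPM, Cox4i2 thus made up 53.5% and 39.6% of the pair at day 7, 28.0%, 18% and 28.1% in 4F at day 21, and 41.1% and 33.1% in 8F. The summed exons of Cox4i1 are 2.08 times as long as its principal transcript, while those of Cox4i2 are close to the length of its own. The TPM of Cox4i1 is therefore lower for its read number, which raises the share of Cox4i2 in every library. How much of the pair Cox4i2 made up apart from these lengths was not tested. The 8F shares were above all 3 of 4F at the same day, while the difference in Cox4i2 itself was not past the threshold (0.85 ± 0.293, limma adjusted p = 0.148).

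Cox6b2, the form of Cox6b1 known from testis, rose between the days, with 29.4 and 41.5 TPM at day 7 and 68.4, 93.9 and 100 TPM at day 21 in 4F (1.28 ± 0.228, limma adjusted p = 0.00507). Cox6b1 was at 183 and 218 TPM and then 172, 243 and 149 TPM, with overlap (-0.12 ± 0.217, limma adjusted p = 0.699). The share of Cox6b2 in the pair went from 13.9% and 16.0% to between 27.9% and 40.3%, and in 8F it was 20.5% and 27.3%. Here the summed exons are 2.38 times as long as the principal transcript for Cox6b2 and 1.15 times for Cox6b1. Among the Cox7a genes, Cox7a2 fell from 77.7 and 113 TPM to 46.8, 52.9 and 62.9 TPM (limma adjusted p = 0.0201). Cox7a2l, which takes part in joining complexes III and IV, was at 105 and 95.6 TPM against 111, 143 and 98.2 TPM and did not pass. The heart and muscle form Cox7a1 was near the limit of detection, at 8.57 and 1.43 TPM at day 7, 0 in the 3 libraries of 4F at day 21, and 1.92 and 2.48 TPM in 8F. The day 7 values rest on 18 and 4 estimated reads and 3 reads would give 1.20 to 1.34 TPM in the day 21 libraries of 4F. Its call (limma adjusted p = 0.0218) was kept in 12 of 19 alternatives, and was lost without day 7 replicate 1 and without any of the 3 libraries of 4F at day 21.

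Other tissue-bound forms were low or at 0. Cox6a2, the heart and muscle form, reached at most 5.30 TPM, against 160 to 274 TPM for Cox6a1. Cox8c, the testis form of Cox8a, reached at most 6.95 TPM. The 3 genes of the ring subunit, which encode one mature protein, contributed in unlike shares: Atp5g2 made up 3.89% to 24.3% of the trio in the 4F libraries and 43.3% and 38.1% in 8F. In 4F at day 21 Atp5g3 took 72.6%, 51.9% and 28.3%, so replicates of one group differed widely. The summed exons of Atp5g1, Atp5g2 and Atp5g3 are 8.24, 3.8 and 3.05 times as long as their principal transcripts, which also enters these shares. Ndufa4l2, the paralog of Ndufa4 known to respond to low oxygen and not taken by the symbol rule, made up 6.31% to 13.3% of its pair in 4F libraries and 21.3% and 16.5% in 8F, and its own difference did not pass (1.54 ± 0.488, limma adjusted p = 0.119).

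**Figure D5:**
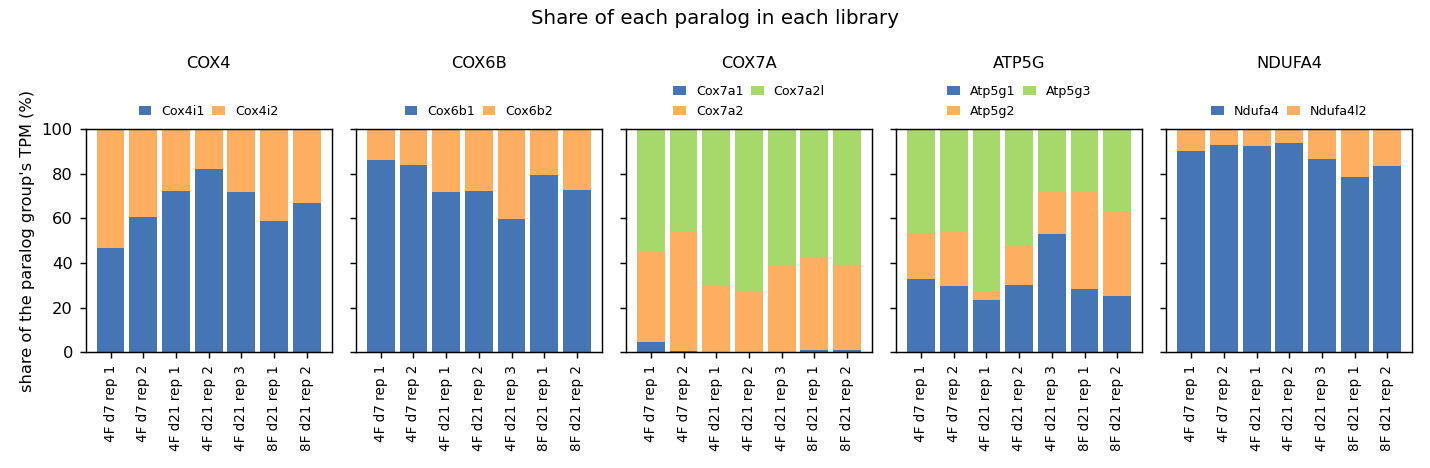
Share of each paralog in the summed TPM of its group (y axis, percent) in the 7 libraries, for 5 groups of paralogs. The orange part of the first panel, Cox4i2, is 53.5% and 39.6% at day 7 and 18% to 28.1% in 4F at day 21. The size of a share depends on the exon lengths used for TPM.

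Genes outside the symbol rule but in the same pathway were counted in 5 lists. Of 51 assembly factors, which insert cofactors and join subunits, 10 rose and 5 fell in 4F between the days, which is 29.4%, below the 40.6% of all genes tested. Lyrm7, which delivers the iron-sulfur protein to complex III, rose most, from 1.92 and 4.51 TPM to 25.9, 19.3 and 24.9 TPM (2.59, limma adjusted p = 0.00168), and was lower in 8F at day 21, at 5.91 and 6.20 TPM (-1.78, limma adjusted p = 0.0309). Ndufaf2, which acts late in the assembly of complex I, went from 9.16 and 10.8 TPM to 43.2, 53.6 and 54.1 TPM (2.22, limma adjusted p = 0.000244). Ndufaf1, an early factor of the same complex, fell from 19.4 and 19.4 TPM to 3.84, 6.75 and 2.07 TPM (-2.07, limma adjusted p = 0.0111). Coa3, which acts on the translation of the first complex IV subunit, also fell (-1.63). Ndufaf1 and Ndufaf2 thus moved in opposite directions. Of 13 genes of coenzyme Q synthesis, 3 rose and 1 fell (30.8%), with Coq7 (1.15) and Coq9 the largest rises and Coq8a the fall (-2.1). Coq9 had 29.4 and 12.6 TPM at day 7 and 38.2, 42.7 and 39.7 TPM at day 21 (limma adjusted p = 0.0433), a call kept in 6 of 20 alternatives. Among 7 carriers and porins, 3 fell (42.9%, against 15.3% of all genes lower), of which Slc25a4 (-0.88) and Slc25a3 (-0.86) carry adenine nucleotides and phosphate for complex V. Of the 6 other subunits and paralogs, Cyct, the testis cytochrome c, fell (-2.92). Between 8F and 4F at day 21, the porin Vdac3 was higher in 8F, with 111 and 103 TPM against 48, 63.4 and 45.7 TPM (limma adjusted p = 0.0241), and the carrier Slc25a31 lower (-0.94, limma adjusted p = 0.0448). The call of Slc25a31 was kept in 8 of 20 alternatives, and was lost after median-of-ratios or quantile scaling, with either voom fit and without any day 21 library.

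Of 17 tested regulators of respiratory genes and mitochondrial DNA, 4 rose and 3 fell in 4F between the days, 41.2% against 40.6% of all genes tested. Gabpa fell, as given above, and was lower again in 8F, at 17.7 and 17.2 TPM (-0.78, limma adjusted p = 0.0189). Of the other factors whose motifs were counted, Nrf1 rose from 14.2 and 12.5 TPM to 21.3, 20.6 and 23.6 TPM (0.67, limma adjusted p = 0.0174). Yy1 did not pass (-0.46, limma adjusted p = 0.207). The call of Nrf1 was not followed through the alternatives, and a link between these levels and the motifs was not tested. Esrra, a nuclear receptor of respiratory genes, fell from 5.34 and 5.62 TPM to 0.266, 0.678 and 0.486 TPM (-2.14, limma adjusted p = 0.00373). Tfam, which packs and transcribes mitochondrial DNA, rose from 53.1 and 47.9 TPM to 91.3, 90.4 and 77.6 TPM (0.76, limma adjusted p = 0.0034), and Tfb1m (0.7) passed as well, in 6 of 20 alternatives, while the polymerase subunit Polg2 fell (-1.72). Between 8F and 4F at day 21, Cycs, the cytochrome c that carries electrons to complex IV, had 15.1, 29.3 and 15.1 TPM in 4F and 58.4 and 47.7 TPM in 8F (1.44, limma adjusted p = 0.0386). Ndufab1, the acyl carrier protein that is also part of complex I, had 15.7, 20.4 and 20.6 TPM against 42.1 and 37.6 TPM (1.04, limma adjusted p = 0.0247). Both of these lay above all 4F libraries, including those of day 7, and the calls of Lyrm7, Vdac3, Gabpa, Cycs and Ndufab1 between 8F and 4F were each lost without either 8F library.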

How the data were processed

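The authors deposited TPM values of 55364 genes in 7 mini-oocyte libraries. Per their methods, SMART-seq Stranded libraries were trimmed with Trim Galore! and aligned to mm10 with Hisat2. Ribosomal RNA was removed with Bedtools, uniquely mapped reads were counted with featureCounts on GENCODE vM25 with fractional counts for overlapping genes, and TPM was computed. A strand setting is not given in the sources used here. Reads of 53 or 150 bases were used, and which library had which is not given.

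log2(TPM + 1) of genes with at least 1 TPM in 2 or more libraries was fitted for the 3 groups with limma 3.58.1 in R 4.3.3 (eBayes with trend), with Benjamini-Hochberg adjustment and a threshold of 0.05. The scripts were tested on simulated data with an assumed spread, for 8F against 4F at day 21. There the fit recovered 2 of 79 changes of 1 on the log2 scale and 61 of 85 changes of 2, with 4 false calls. Changes of 1 were thus mostly missed in that simulation. Read numbers were estimated from the TPM steps, at which 78.0% to 82.1% of low values came out whole. Exon lengths, overlaps and shared 50-base stretches were computed from GENCODE vM21, the release at hand, so they can differ from the authors' lengths. Promoters came from RefSeq.

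Named with values were all paralog pairs, the catalytic subunits (1 is not reported here), up to 6 members in each direction with the largest change in the first 2 comparisons, the 2 most abundant of each complex, and the 2 largest changes in each direction of each pathway list. The other members with values, such as Ndufa10, Ndufs4, Ndufa7, Ndufb9, Uqcrb and Atp5j, and the regulators Nrf1 and Yy1 were named after their values were seen. The members and lists were chosen with earlier results of these data known. Alternatives covered the pseudocount, filter, scaling, variance model, each library left out, and voom on the estimated reads.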

Additional observations from a re-analysis of the deposited data

How the results depend on the processing

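Values are those under the named alternative, on the log2 scale for medians, and "relative" means minus the median of all genes tested. The cause of these shifts was not tested. In 8F against 4F at day 21 (7 members past the threshold, 4 higher and 3 lower), the count was 4 without the trend (1 lower), 22 with array weights (14 higher, 8 lower), 12 with only the 2 groups compared (9 higher), 13 with voom (11 higher) and 3 without members of shared or overlapping sequence (2 higher, 1 lower). With each library left out it ran from 1 to 12 (0 to 9 higher, 1 to 3 lower). The median of all genes, 0.06, was 0.13 with a pseudocount of 0.1, -0.03 after quantile normalization, 0.27 with voom and 0.13 with voom and median-of-ratios sizes. The relative median of complex I, -0.13, was -0.21 and -0.07 with pseudocounts of 0.1 and 5, -0.02 after quantile normalization, -0.22 with either voom fit, and -0.23 to -0.02 with a library left out. After quantile normalization complexes II and III were at 0.13 and 0.43. With a library left out, complex III ran from 0.21 to 0.44, complex IV from 0.3 to 0.58, and complex I minus complex IV from -0.72 to -0.41.

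Of the lists in that comparison, the other subunits (2 past the threshold) had 1 without the filter, 0 without the trend, 4 with array weights and 0 to 3 with a library left out. Assembly factors (1) had 2 with a filter of 5 TPM, 0 after quantile normalization, 5 with array weights, 2 with only the 2 groups, 2 with either voom fit and 0 to 2 with a library left out. Carriers (2) had 1 without the filter, after median-of-ratios or quantile scaling and with either voom fit, 0 without the trend, and 0 to 2 with a library left out. Regulators (1) had 0 without the trend, 4 with array weights, 2 with either voom fit and 0 to 1 with a library left out.

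In 4F at day 21 against day 7 (39 members, 23 higher and 16 lower), the count was 25 without the trend (9 lower). Higher calls were 14, 8, 7 and 14 after median-of-ratios, quantile, voom and voom with median-of-ratios sizes. Lower calls were 10 without the filter, 36 after quantile normalization, 33 with voom, and 9 to 15 with a library left out, the lowest without 4F day 7 replicate 1 and without 4F day 21 replicate 1. The median of all genes, 0.17, was 0.1 with a pseudocount of 5, 0 without the filter, 0.36 with a filter of 5 TPM, -0.06, 0.04, -0.32 and -0.13 under the 4 scalings in the order above, and 0.15 to 0.36 with a library left out. Complex I minus complex IV, 0.96, was 0.72 with a pseudocount of 5, 0.75 with a filter of 5 TPM, 0.77 by median of ratios, 0.74 by quantiles, and 0.69 to 0.96 with a library left out. The relative median of complex I was 0.35 with a pseudocount of 5, 0.46 without the filter, 0.12 with a filter of 5 TPM, 0.18 by median of ratios, -0.1 by quantiles and 0.02 to 0.37 with a library left out. Complexes II, III and V were at 0.77, -0.06 and -0.26 without the filter, 0.41, -0.42 and -0.62 with a filter of 5 TPM, 0.16, -0.65 and -0.82 by quantiles, and 0.32 to 0.71, -0.38 to -0.1 and -0.75 to -0.33 with a library left out. Complex IV was at -0.37 with a pseudocount of 5. The other subunits (1) had 2 with a filter of 5 TPM, by median of ratios, with either voom fit and with genes of at least 300 exonic bases, 3 by quantiles, and 0 to 2 with a library left out. Regulators (7) had 4 to 8 with a library left out.

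Where the value had passed in the TPM or passed under the alternative, signs of named genes turned for Atp5b (-0.02 by median of ratios, -0.29 by quantiles, -0.22 with voom, -0.03 with voom and median-of-ratios sizes), Sdhb (-0.08 by quantiles, -0.08 with voom), Uqcrc2 (-0.14 and -0.04), Cox5b (-0.34 and -0.35), Uqcr11 (-0.5 by quantiles) and Atp5a1 (-0.03 with voom). Ndufs5 and Ndufc2 turned too (-0.03 and -0.04 by quantiles), and of the 45 members that did not pass 26 turned in some alternative.

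In 8F at day 21 against 4F at day 7 (26 members, 19 higher and 7 lower), the count was 17 without the trend (4 lower), 17 without members of shared or overlapping sequence (2 lower) and 10 to 30 with a library left out (8 to 22 higher, 2 to 8 lower), the lowest counts, 13 and 10, without 8F replicate 1 and 2. Higher calls were 8 by median of ratios, 4 by quantiles and 9 with either voom fit. Lower calls were 12 by median of ratios, 19 by quantiles, 11 with only the 2 groups and 14 with either voom fit. The median of all genes, 0.24, was 0.35 and 0.12 with pseudocounts of 0.1 and 5, 0.06 without the filter, 0.39 with a filter of 5 TPM, -0.01 by median of ratios and by quantiles, -0.05 with voom, 0 with voom and median-of-ratios sizes, and 0.21 to 0.41 with a library left out. Complex medians and lists were not recomputed for this comparison.

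Same-numbered libraries did not deviate together (correlations of -0.04 to 0.01), so the numbers pair nothing beyond a name. With the replicate number as a replicate block, 8F against 4F at day 21 had 1 member past the threshold (0 higher, 1 lower), 0 in each of the other-subunit, assembly, carrier and regulator lists, complex I minus complex IV at -0.7 and complex I at -0.2. In 4F at day 21 against day 7 the block gave 10 lower members and 2 of the coenzyme Q genes, and Cox7a1 did not pass. The alternatives by voom, the length limit and the removal of members of shared sequence were chosen after seeing the data. Voom used reads estimated from TPM, and genes with few reads limit every comparison.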
